A study of Mus musculus with 3 samples.

Results

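Kidney chromatin from C57BL/6 mice was profiled by ChIP-seq for H3K27me3, and the regions described here are the 630 places where a peak of ADA-treated kidney and a peak of untreated kidney overlapped and the untreated peak had the higher fragment pileup. They were chosen from 4719 pairs of overlapping peaks on chromosomes 1 to 19, each peak standing in 1 pair only, and the other 4089 pairs had an equal or higher pileup in ADA-treated kidney. The groups were 1 H3K27me3 library from ADA-treated mice and 1 from untreated mice of the same strain (the labels do not spell out ADA). The third sample, an input of untreated kidney, has no values of its own here. Mice lacking SAHH in podocytes, named in the series title, were not analysed here. The age and number of mice behind a library are not given in the sources used here. Since each group is 1 library without a replicate, the groups were compared without tests. Ranges in brackets after a percentage are Clopper-Pearson exact intervals at 95%, and they describe counting error alone.

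H3K27me3 is a methyl mark on the tail of histone H3 that the Polycomb complex PRC2 writes and the complex PRC1 can read. In mammals it is best known for covering the CpG-rich starts of developmental genes that a differentiated tissue keeps silent. In whole kidney the signal is a mixture of many cell types, and fewer cells carrying the mark and less mark per cell cannot be told apart.

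The sequences below show gene starts under these regions, and how widely they differ in CpG, the dinucleotide whose density marks the starts that PRC2 typically covers. They were taken from the 4 members with the largest pileup ratio and the 4 with the highest untreated pileup among members with a start site of a protein-coding gene inside the overlap, leaving out genes with Gm and Rik names. Each is the 250 bases before an annotated start site of the gene, taken from RefSeq (GRCm38.p6), printed 5′ to 3′ on the gene's strand, with every CpG in capitals. The start site lies inside the overlap, but the stretch before it can reach beyond, as at Dpp9, Tmem245, Wtip and Zfp367.
Odr4 (chr1:150393081-150393330, minus strand): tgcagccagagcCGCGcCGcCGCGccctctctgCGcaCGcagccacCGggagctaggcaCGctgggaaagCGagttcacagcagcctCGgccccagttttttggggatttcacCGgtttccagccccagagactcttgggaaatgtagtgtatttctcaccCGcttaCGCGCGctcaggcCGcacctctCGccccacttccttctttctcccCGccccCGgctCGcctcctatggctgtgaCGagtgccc
Tmem245 (chr4:56947430-56947679, minus strand): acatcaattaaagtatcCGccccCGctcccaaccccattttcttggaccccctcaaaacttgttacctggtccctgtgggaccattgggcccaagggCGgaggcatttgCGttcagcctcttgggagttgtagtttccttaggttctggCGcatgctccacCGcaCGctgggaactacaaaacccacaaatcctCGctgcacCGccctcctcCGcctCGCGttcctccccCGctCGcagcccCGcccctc
Dpp9 (chr17:56218890-56219139, minus strand): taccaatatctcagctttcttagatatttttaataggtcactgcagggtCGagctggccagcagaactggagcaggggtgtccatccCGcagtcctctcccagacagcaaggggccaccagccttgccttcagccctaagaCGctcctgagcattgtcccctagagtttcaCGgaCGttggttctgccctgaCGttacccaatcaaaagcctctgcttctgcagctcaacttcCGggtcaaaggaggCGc
Casz1 (chr4:148804142-148804391, plus strand): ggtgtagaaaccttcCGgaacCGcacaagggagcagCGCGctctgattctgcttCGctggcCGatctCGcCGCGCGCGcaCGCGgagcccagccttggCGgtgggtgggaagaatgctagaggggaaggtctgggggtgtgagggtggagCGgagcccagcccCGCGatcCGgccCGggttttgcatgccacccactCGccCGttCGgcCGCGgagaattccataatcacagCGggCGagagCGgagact
Zfp367 (chr13:64153200-64153449, minus strand): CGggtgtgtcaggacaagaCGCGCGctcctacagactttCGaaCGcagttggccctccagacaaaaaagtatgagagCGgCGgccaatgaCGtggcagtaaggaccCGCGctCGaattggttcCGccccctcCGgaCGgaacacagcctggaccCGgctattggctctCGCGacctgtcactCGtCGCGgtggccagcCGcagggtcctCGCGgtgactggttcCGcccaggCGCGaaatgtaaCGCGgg
Wtip (chr7:34133269-34133518, minus strand): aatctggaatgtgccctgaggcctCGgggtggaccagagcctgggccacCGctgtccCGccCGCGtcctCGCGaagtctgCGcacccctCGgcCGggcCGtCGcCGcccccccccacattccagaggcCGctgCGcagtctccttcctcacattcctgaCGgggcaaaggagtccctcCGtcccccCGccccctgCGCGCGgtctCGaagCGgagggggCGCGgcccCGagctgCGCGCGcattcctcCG
Ugt1a1 (chr1:88211709-88211958, plus strand): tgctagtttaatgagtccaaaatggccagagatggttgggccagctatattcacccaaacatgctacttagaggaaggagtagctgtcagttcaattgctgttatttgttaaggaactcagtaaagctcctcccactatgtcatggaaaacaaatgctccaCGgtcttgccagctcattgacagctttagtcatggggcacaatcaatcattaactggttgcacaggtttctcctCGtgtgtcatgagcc
Trpm8 (chr1:88306485-88306734, plus strand): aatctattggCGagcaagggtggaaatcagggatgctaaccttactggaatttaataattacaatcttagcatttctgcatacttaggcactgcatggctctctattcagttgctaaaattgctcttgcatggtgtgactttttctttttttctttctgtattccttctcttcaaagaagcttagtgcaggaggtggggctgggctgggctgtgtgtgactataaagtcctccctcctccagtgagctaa
The stretch of Wtip held 30 CpG, that of Zfp367 29, that of Casz1 27, that of Odr4 22 and that of Tmem245 15. The Dpp9 stretch held 8. Those of Ugt1a1 and Trpm8, which lie in the 2 longest members of chromosome 1, held 2 and 1.

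The pileups that chose the members were close to each other and close to the lowest values listed. Pileup is the number of fragments stacked over a base, averaged over the peak, and the lowest pileup in either list was 10. In the members the ADA-treated pileup had a median of 10.9 (quartiles 10.4 and 11.5, range 10 to 120) and the untreated pileup a median of 11.6 (11.01 and 12.5, range 10.02 to 122). The ratio of untreated over ADA-treated pileup had a median of 1.053 and reached 1.36. It was at least 1.1 in 149 members, which are 3.16% of all pairs, and at least 1.3 in 7. In the other pairs the ADA-treated pileup had a median of 14.1 and the untreated pileup one of 10.9, and the ADA-treated pileup was higher by a median factor of 1.26. Most member peaks did not reach a q of 5% from the peak caller. It was at most 5% in 127 members (20.2%) for the untreated peak and in 241 (38.3%) for the ADA-treated peak. In the other pairs these shares were 7.85% and 92.2%. Since q moves with pileup, they are not independent of the rule. Members made up 13.4% of all pairs, a share that the rule itself fixed and that supports nothing.

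These differences were mostly smaller than the counting error of a peak. The median member peak amounted to 34.7 whole fragments in ADA-treated kidney and 23.8 in untreated kidney (pileup times length over mean fragment length), and the median counting error of the pileup ratio was 32.3%. The untreated pileup exceeded the ADA-treated one by more than 1 counting error in 6 of the 630 members, and by more than the 95% range of counting error in 1 member (0.0212% of all pairs). In the opposite direction, the ADA-treated pileup was higher by more than that range in 698 pairs (14.8% of all pairs). In none of the other members was a difference from equal pileup detectable at this depth. That 1 member stood at 2.02 counting errors, the most extreme of the 4719 pairs in this direction. The range was not adjusted for the number of pairs, so it is not counted as a detected difference either. At the threshold itself, members at Mxra7, at Acot3 and at the pseudogene Gm18262 were inside by a pileup of 0.01, as at Mxra7 with 12.35 in ADA-treated and 12.36 in untreated kidney. Pairs at Sfxn3 and Stox2 and one inside 3110082I17Rik were outside by the same amount, as at Stox2 with 10.87 in ADA-treated and 10.86 in untreated kidney. Another 13 pairs had equal pileups and were not members.

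**Figure D1:**
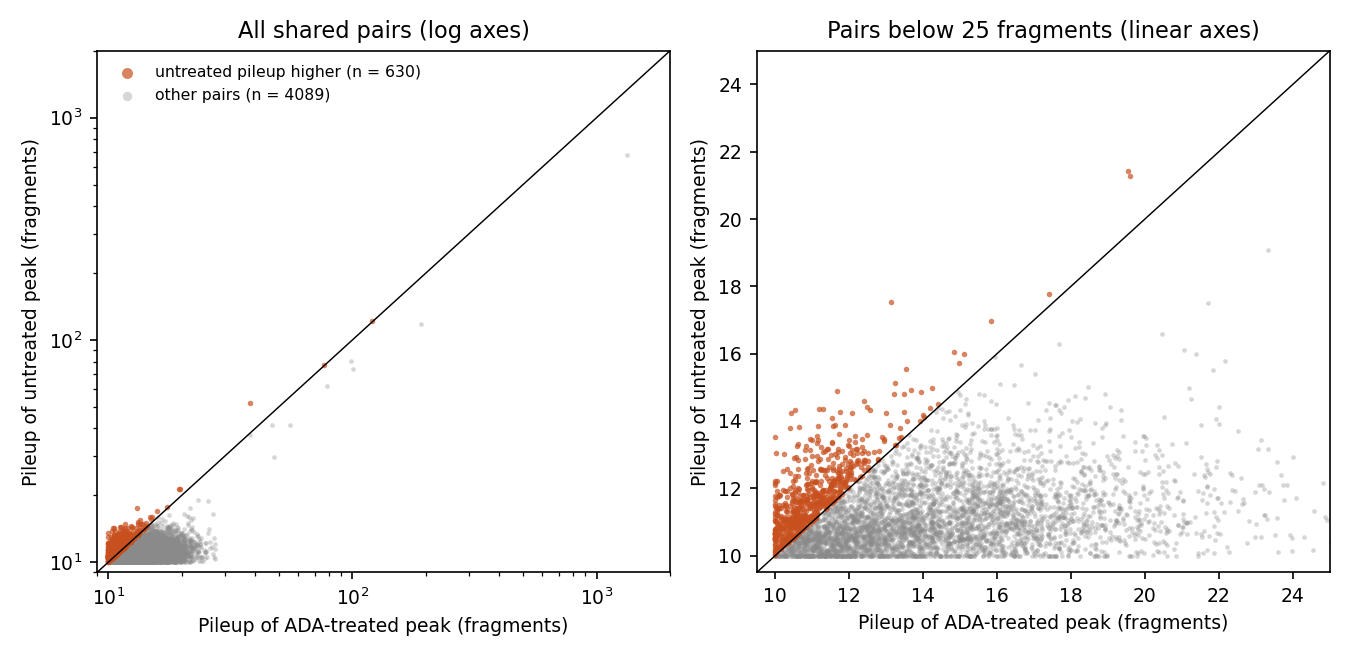
Fragment pileup of the ADA-treated peak (horizontal) against that of the untreated peak (vertical) in each of the 4719 pairs, on log axes (left) and below 25 fragments on linear axes (right). The 630 members (orange) lie above the line of equality in a narrow wedge near the lowest listed pileup of 10, while the 4089 other pairs (grey) spread to the right.

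Taken over all pairs, the members lay at gene ends less often than the other pairs, and more often inside genes or between them. The midpoint of the overlap was within 2 kb of an end of an annotated gene of any kind in 407 members (64.6%, interval 60.7 to 68.3%) and in 3322 other pairs (81.2%, 80.0 to 82.4%). It was further inside a gene in 180 members (28.6%, 25.1 to 32.3%) and in 678 other pairs (16.6%, 15.5 to 17.8%). It lay outside genes in 43 members (6.83%, 4.98 to 9.08%) and in 89 other pairs (2.18%, 1.75 to 2.67%). Read the other way, members were 10.9% of the pairs at gene ends (9.93 to 11.96%), 20.98% of the pairs inside genes (18.3 to 23.9%) and 32.6% of the intergenic pairs (24.7 to 41.3%). The median distance from the overlap to the nearest gene end was 795 bp in members and 398 bp in the other pairs. A gene end lay within the overlap of both peaks in 25.6% of members (22.2 to 29.2%) and in 43.3% of the other pairs (41.7 to 44.8%). This measure also depends on the length of the overlap, which was shorter in members, and it was not compared at like length. No enrichment test was run, and these intervals treat regions of 1 library pair as independent.

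**Figure D2:**
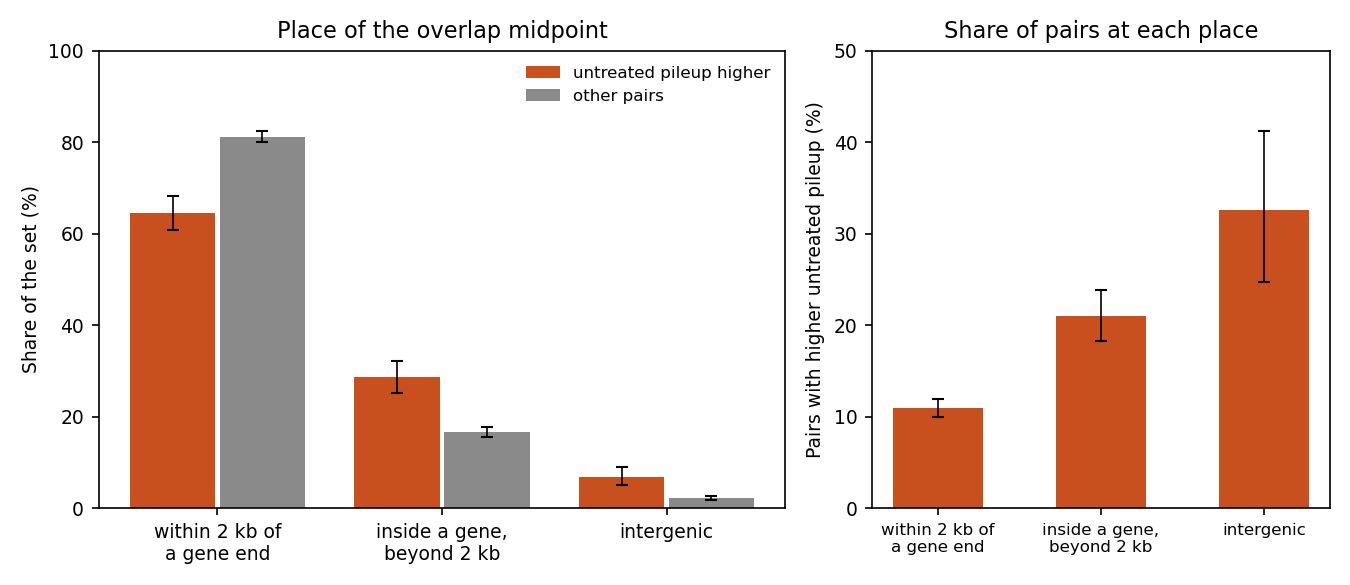
Left, share of the members (orange) and of the other pairs (grey) at each place; right, share of the pairs at each place that were members; bars show exact 95% intervals. Members hold 64.6% at gene ends, against 81.2% of the other pairs, and make up 32.6% of the intergenic pairs.

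Since most members were weak, place was also compared within bands of pileup. Place was not used by the rule. In the other pairs the share at gene ends was lowest in the weakest band, whereas in the members it was lowest in the strongest, which holds few of them. Among pairs whose 2 pileups averaged 10 to 11, 54.8% of 241 members (48.3 to 61.2%) and 58.2% of 533 other pairs (53.8 to 62.4%) were at gene ends, and the intervals overlap. At 11 to 12 the shares were 67.4% of 236 members (61.0 to 73.3%) and 76.4% of 905 other pairs (73.4 to 79.1%), and the intervals lie just apart. At 12 to 13 they were 79.3% of 111 members (70.5 to 86.4%) and 84.0% of 921 other pairs (81.5 to 86.3%), with overlapping intervals. Only 31 members lay at 13 to 15 (77.4%, 58.9 to 90.4%, against 90.3%, 88.5 to 91.9%, of 1265 other pairs) and 11 at 15 or more (36.4%, 10.9 to 69.2%, against 87.1%, 83.7 to 90.01%, of 465), and in the strongest band the intervals do not overlap. Among pairs whose pileups were within 5% of each other, which straddle the threshold, 61.4% of 293 members (55.6 to 67.0%) and 64.4% of 407 other pairs (59.5 to 69.0%) were at gene ends. For these nearly equal pairs the intervals overlap. The members' share at gene ends was the lower one in each band, with intervals apart at 11 to 12 and at 15 or more. The 11 members at 15 or more include neighbouring regions in Sfi1 and adjoining ones at Ugt1a and Trpm8, so they are not all separate loci. The intergenic share at 10 to 11 was 7.05% of members (4.16 to 11.1%) and 7.88% of other pairs (5.74 to 10.5%). In the stronger bands the members had the higher intergenic share, with intervals apart only at 11 to 12 and at 15 or more.

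**Figure D3:**
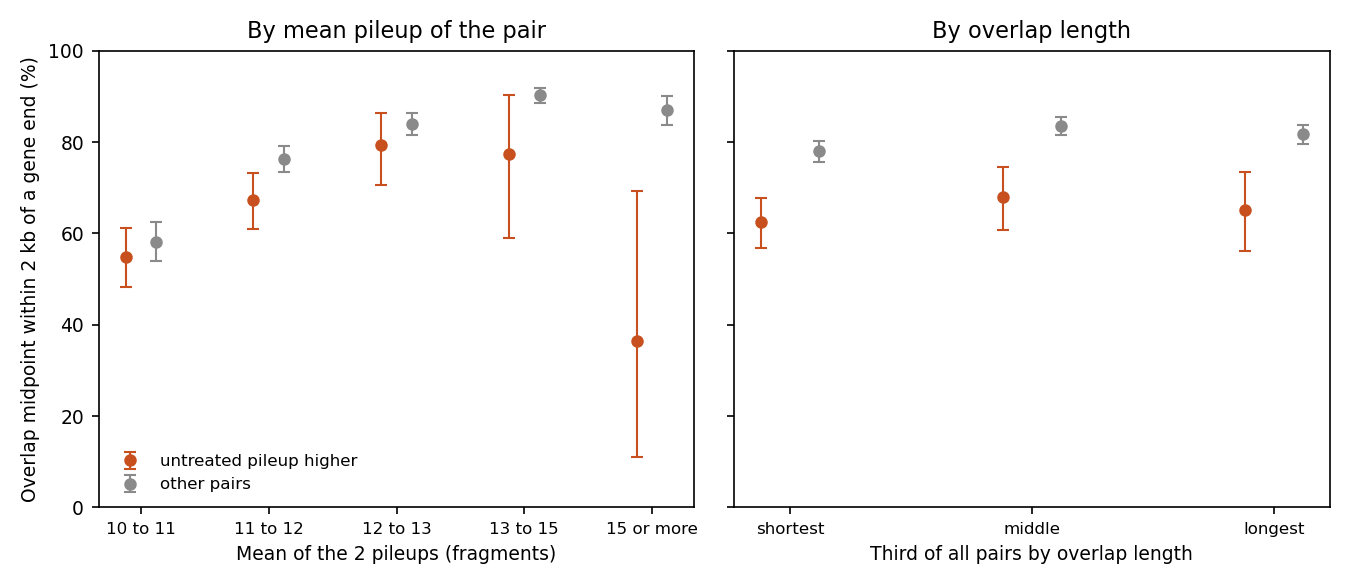
Share of members (orange) and other pairs (grey) within 2 kb of a gene end, by the mean of the 2 pileups (left) and by overlap length in 3 equal classes of all pairs (right), with exact 95% intervals. By strength the sets lie close in the weakest band (54.8% and 58.2%). They lie far apart in the strongest (36.4% and 87.1%), which holds only 11 members, some of them neighbours. By length the members stay lower in every class.

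Over all pairs, members were shorter than the other pairs in both lists, but not at every pileup. Length is given by the peak caller and moves with pileup, so it is described and not tested. The ADA-treated peak had a median of 904.5 bp in members (quartiles 569 and 1442) and 1132 bp in the other pairs, and the untreated peak had 636 bp (417 and 1121) and 788 bp. The overlap had a median of 427 bp in members and 594 bp in the other pairs. Among pairs with pileups within 5% of each other the lengths were close, with ADA-treated medians of 943 bp in members and 954 bp in the other pairs and untreated medians of 742 bp in members and 752 bp in the other pairs. At a mean pileup of 11 to 12 the ADA-treated medians were 1008 bp in members and 1005 bp in the other pairs, while the untreated ones were 587.5 bp in members and 782 bp in the other pairs. At 15 or more the 11 members had the longer peaks, with ADA-treated medians of 2351 bp in members and 1272 bp in the other pairs and untreated medians of 969 bp in members and 856 bp in the other pairs. The untreated peak was the shorter of the 2 in 65.1% of members (61.2 to 68.8%) and in 72.5% of the other pairs (71.1 to 73.9%). It lay wholly inside the ADA-treated peak in 30.3% of members and in 42.1% of the other pairs. The overlap covered a median of 79.8% of the untreated peak in members and 93.5% in the other pairs. Since each pileup is averaged over its own peak, a pair compares 2 stretches that coincide only in part, and 256 members (40.6%, 36.8 to 44.6%) overlapped by at least 50% of both peaks, against 51.9% of the other pairs (50.4 to 53.5%). With overlap length held in 3 equal classes of all pairs, members stayed less often at gene ends, with 62.4% against 78.1% in the shortest class, 67.9% against 83.6% in the middle and 65.1% against 81.7% in the longest.

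Gene starts under the members were CpG-rich, and somewhat less so than those under the other pairs. A RefSeq start site lay inside the overlap in 175 of the 623 members on chromosomes with promoter entries (28.1%, 24.6 to 31.8%) and in 1805 of 3990 other pairs (45.2%, 43.7 to 46.8%). Overlaps were shorter in members, and the shares with start sites inside them were not compared at like length. The 250 bases before these start sites had a median of 64% G and C in members (207 promoters), 69.2% in the other pairs (2279 promoters) and 52.4% over all 31396 autosomal promoters of the table. The ratio of observed to expected CpG was at least 0.6 in 85.0% of the member promoters and in 89.0% of those of the other pairs, against 34.5% of all promoters. The letters CGCG, searched on both strands, stood in 82.1% of member promoters, 85.8% of those of the other pairs and 34.2% of all. TATAAA, the core of the TATA box, stood in 5.31% of member promoters (11 of 207), 2.59% of those of the other pairs and 12.4% of all. CCAAT stood in 34.8%, 34.2% and 33.7%, and GAGAG in 60.9%, 52.2% and 54.9%. The motifs do not overlap by rule, and a match is a description of letters and not a binding site. Of the sequences above, the Trpm8 stretch held TATAAA, and those of Tmem245, Dpp9, Zfp367 and Trpm8 held CCAAT.

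The largest ratio was at a short region inside Sfi1, a gene for a centrosomal protein, at chromosome 11, 3172308 to 3172870 (GRCm38). Its pileup was 38.24 in ADA-treated and 52.19 in untreated kidney, a ratio of 1.36 with a counting error of 16.6%. This was the 1 member past the 95% range of counting error, a range not adjusted for the number of pairs. A second member inside Sfi1, at 3184031 to 3200057 over the pseudogene Fau-ps2, was 16044 bp long in ADA-treated and 16033 bp in untreated kidney. Its pileup was 76.26 in ADA-treated and 77.15 in untreated kidney. So Sfi1 held both the member with the largest ratio and one of nearly equal pileup.

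Next by ratio came short regions, most of them near the lowest listed pileup. A region 852 bp from the end of the long noncoding RNA gene Gm10512 had a pileup of 10.44 in ADA-treated and 14.23 in untreated kidney. Inside Abcg1, which encodes a cholesterol exporter, the pileup was 10 in ADA-treated and 13.51 in untreated kidney. Inside the zinc finger gene Zfp978 it was 13.12 in ADA-treated and 17.54 in untreated kidney. The regions at Gm10512 and in Zfp978 were above equality by more than 1 counting error, and that in Abcg1 was not. Inside Zcchc24 the pileup was 10.4 in ADA-treated and 13.78 in untreated kidney, and inside the pseudogene Gm9597 it was 10.02 in ADA-treated and 13.05 in untreated kidney, both within 1 counting error of equality. The 4 regions inside genes lay 7899 to 16902 bp from the nearest gene end.

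Among members at ends of protein-coding genes, Rtn3 had the largest ratio. Rtn3, a reticulon that shapes the endoplasmic reticulum, had a pileup of 10.54 in ADA-treated and 14.32 in untreated kidney. Psmd7, a lid subunit of the proteasome, had 10.64 in ADA-treated and 13.82 in untreated kidney. A region over both Odr4 and Tpr, of which Tpr encodes a nuclear pore basket protein, had 11.18 in ADA-treated and 14.35 in untreated kidney. In each of these 3 the 2 pileups were within 1 counting error of the ratio, which was 32.2 to 38.9%. For Dpp9, a serine dipeptidyl peptidase, the pileup was 11.3 in ADA-treated and 14.35 in untreated kidney. For the membrane protein gene Tmem245 it was 11.67 in ADA-treated and 14.89 in untreated kidney. Casz1, a zinc finger transcription factor of heart and vessel development, had 10.61 in ADA-treated and 13.32 in untreated kidney. Here too the ratios stayed within their counting errors of 27.2 to 31.7%. The uncharacterised gene 6430628N08Rik had 10.25 in ADA-treated and 13.01 in untreated kidney, with a midpoint 979 bp from the gene's end.

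Smaller ratios of 1.22 to 1.24 were seen at Cc2d1a, Rasl11a, Ube3c, Sost, Dchs2 and Rbak. Sost, which encodes the Wnt antagonist sclerostin, had a pileup of 10.21 in ADA-treated and 12.5 in untreated kidney. The ubiquitin ligase gene Ube3c had 10.82 in ADA-treated and 13.25 in untreated kidney. Dchs2, a large cadherin gene, had 10 in ADA-treated kidney, the lowest value listed, and 12.22 in untreated kidney. Peak lengths could differ widely within a pair, as at Rasl11a, with 1792 bp in ADA-treated and 337 bp in untreated kidney.

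Zfp367 and Wtip were among the members with the highest untreated pileups at protein-coding ends. Zfp367, a zinc finger transcription factor, had a pileup of 14.83 in ADA-treated and 16.06 in untreated kidney (chromosome 13, 64152746 to 64153315). Wtip, named for its interaction with the podocyte transcription factor WT1, had 13.55 in ADA-treated and 15.53 in untreated kidney. Both ratios were within their counting errors, 24.2% at Zfp367 and 23.1% at Wtip. Nup98, a nuclear pore gene, shared its region with Pgap2 at 14.23 in ADA-treated and 14.97 in untreated kidney. B3gnt4 with Lrrc43 had 13.68 in ADA-treated and 14.93 in untreated kidney. Barhl1, a homeobox gene of neural development, had 13.48 in ADA-treated and 14.79 in untreated kidney. Git2 with Ankrd13a had 13.94 over 2467 bp in ADA-treated and 14.85 over 3950 bp in untreated kidney, with the smallest counting error of these genes, 12.6%, and a ratio of 1.07.

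**Figure D4:**
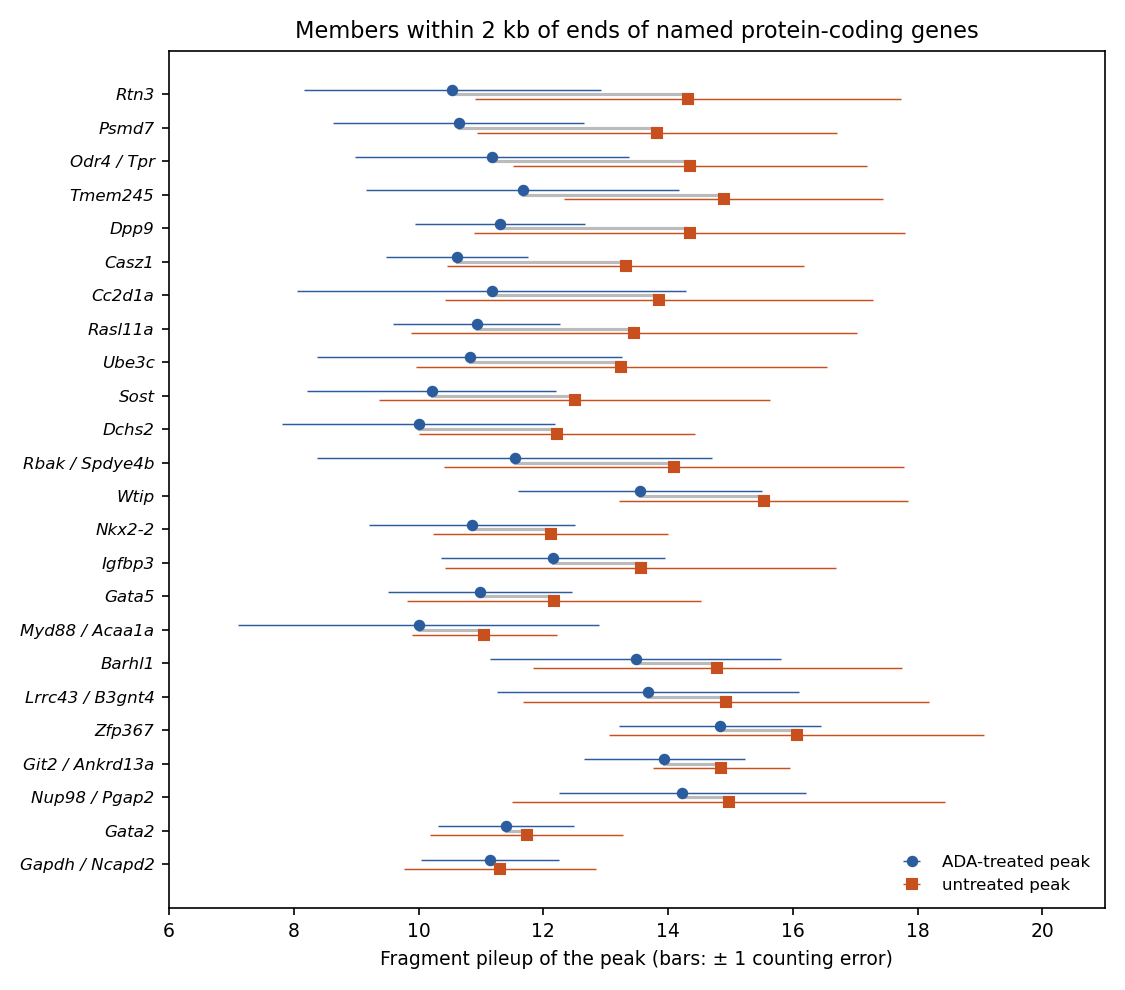
Fragment pileup of the ADA-treated peak (blue circle) and of the untreated peak (orange square) of members within 2 kb of ends of named protein-coding genes, with bars of ± 1 counting error of each peak. The untreated value lies right of the ADA-treated one for every gene by the rule, and the bars of the 2 peaks overlap at every gene, from Rtn3 (10.54 in ADA-treated and 14.32 in untreated kidney) to Gapdh (11.14 and 11.31).

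Pooled over 12 gene lists, members lay near list genes about as often as near protein-coding genes in general. Ends of 491 of 20665 autosomal protein-coding genes (2.38%) lay within 2 kb of a member peak and 3837 (18.6%) within 2 kb of another pair, with 49 genes near both. Of 278 distinct genes in 12 lists, 6 (2.16%) were near a member and 85 (30.6%) near another pair. Of 85 developmental regulators, 2 (2.35%) were near a member and 40 (47.1%) near another pair. The 2 were Nkx2-2, a homeobox gene of neural tube and pancreas, with a pileup of 10.86 in ADA-treated and 12.12 in untreated kidney, and Gata2, a regulator of blood cell development, with 11.4 in ADA-treated and 11.73 in untreated kidney at a region whose midpoint was 3794 bp from the nearest gene end.

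In the other lists at most 1 gene was near a member. Gata5, a zinc finger factor listed with the endothelial and mesangial genes (1 of 16 near a member and 1 near another pair), had a pileup of 10.98 in ADA-treated and 12.17 in untreated kidney. Igfbp3, a secreted binder of insulin-like growth factors among the cell cycle inhibitor and senescence genes (1 of 12, and 3 near another pair), had 12.16 in ADA-treated and 13.56 in untreated kidney. Myd88, the adaptor of Toll-like receptors among the inflammasome and inflammation genes (1 of 19, and 3 near another pair), had 10 in ADA-treated and 11.05 in untreated kidney, with a peak of 349 bp in ADA-treated and 2622 bp in untreated kidney. That untreated peak overlapped 2 ADA-treated peaks, and the 349 bp are those of the paired one alone. The glycolytic housekeeping gene Gapdh (1 of 18, and 8 near another pair) had 11.14 in ADA-treated and 11.31 in untreated kidney over a region also within reach of Ncapd2. No member was near any of the 11 genes for PRC2 subunits and H3K27 demethylases, 20 podocyte genes, 20 proximal tubule genes, 19 genes of the later nephron (loop of Henle to collecting duct), 16 immune cell genes, 23 fibrosis and EMT genes or 20 methionine cycle and adenosine genes. Other pairs were near 6, 6, 2, 2, 1, 9 and 5 genes of these 7 lists. At a background of 2.38%, lists of 11 to 23 genes would hold few members at any rate, so the zeros carry no information on their own.

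Gene families outside the lists showed 1 group under a shared region. All 9 Ugt1a genes, which encode glucuronosyltransferases that conjugate bilirubin and drugs, were near members, but through 1 region at their shared end. Of 388 Zfp zinc finger genes 5 (1.29%) were near a member, of 362 Slc solute carrier genes 10 (2.76%), of 231 Tmem genes 9 (3.9%) and of 76 ribosomal protein genes 3 (3.95%, Rpl7, Rpl7a and Rpl12). These shares stand beside 2.38% of all protein-coding genes. None of 1104 Olfr and 354 Vmn receptor genes was near a pair of either kind. These families were picked with the member genes in view.

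The longest member lay at the Ugt1a genes on chromosome 1. Its untreated peak ran from 88211382 to 88292452, over 81071 bp, and covered the shared end of the Ugt1a genes, Mroh2a and Hjurp, which encodes the chaperone of the centromeric histone CENP-A. The ADA-treated list held 4 peaks under it, with pileups of 17.4, 18.45, 18.03 and 15.84, and the first of them, of 39506 bp, was the paired one. Weighted by length, the 4 ADA-treated peaks averaged 17.5, against 17.78 in untreated kidney. The next region, 88294509 to 88310340, reached the start of Trpm8, a cold-sensing ion channel gene, and had 14.97 in ADA-treated and 15.71 in untreated kidney. The ratios were 1.02 and 1.049, with counting errors of 2.6% and 5.1%, so even at these lengths neither exceeded its counting error.

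**Figure D5:**
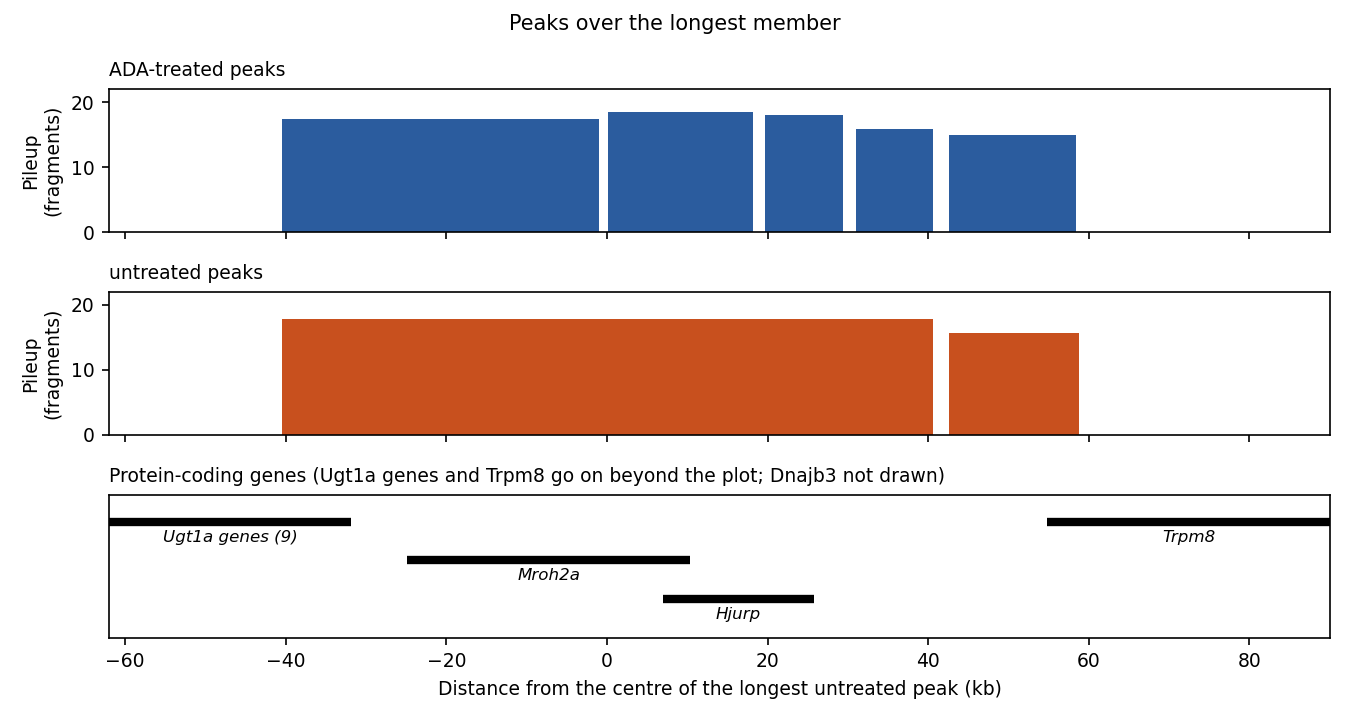
Peaks of the ADA-treated (top) and untreated (middle) library around the longest member, with the pileup of each peak as its height, and the protein-coding genes (bottom), by distance from the centre of the longest untreated peak in kb. The untreated peak of 81071 bp stands over 4 ADA-treated peaks of 15.84 to 18.45 fragments.

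Of the 38 pairs with an untreated pileup of at least 15, 13 were members, and several lay away from protein-coding genes. Members were 13.4% of all pairs. Since the rule itself compares the untreated pileup, picking pairs by it favours members, and the count of 13 supports nothing. The strongest, on chromosome 2 at 98666552 to 98667328, lay 35659 bp from the nearest gene end and had a pileup of 120.15 in ADA-treated and 122.13 in untreated kidney. Its peaks were unlike in length, with 2351 bp in ADA-treated and 777 bp in untreated kidney. A nearby pair, at 98662238 to 98662873, was not a member and had 78.39 in ADA-treated and 62.14 in untreated kidney. A region on chromosome 11 at 88967815 to 88970788, 2370 bp from a gene end and near Elobl, had 19.55 in ADA-treated and 21.44 in untreated kidney. One on chromosome 6 at 3182562 to 3183523, at the long noncoding RNA gene LOC115490388, had 19.61 in ADA-treated and 21.29 in untreated kidney. A region at the long noncoding RNA gene Gm8273 had 15.83 in ADA-treated and 16.96 in untreated kidney. Whether copy number or repeats take part in these pileups was not tested.

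Neighbouring pairs did not differ clearly between the sets. Among members with another pair within 50 kb, the nearest such pair was a member in 59 of 312 (18.9%, 14.7 to 23.7%), against 263 of 1786 other pairs (14.7%, 13.1 to 16.5%), and the intervals overlap. Runs of members with no other pair between them and gaps of at most 50 kb numbered 32 and held 67 members. The largest held 4, on chromosome 4 from 121987101 to 122036202 at the pseudogene Gm12892, with ratios of 1.04 to 1.13. Peaks reaching into that span numbered 7 in ADA-treated kidney, of 5886 bp in sum, and 9 in untreated kidney, of 26407 bp in sum. The ratios there compare stretches of unlike length. Among runs named after their values were seen, Nkx2-2 and its antisense gene lay under 2 members (ratios 1.08 and 1.12), as did Kif26a (1.1 and 1.22) and the long noncoding RNA gene 2700054A10Rik (1.19 and 1.2). By chromosome, members were 6.6% of pairs on chromosome 18 (7 of 106) to 19.6% on chromosome 13 (27 of 138, interval 13.3 to 27.2%).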

How the data were processed

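H3K27me3 ChIP-seq peak lists of 1 ADA-treated and 1 untreated library were used. Per the file headers, the authors ran MACS 2.1.2 (broad, paired-end, p 0.001, no local lambda, all duplicates in the alignments kept) on each library with an input of its own. They list 20602041 ChIP fragments of 293 bp for the ADA-treated library and 18849785 of 321 bp for the untreated one. The background that pileup and fold enrichment imply was 3.24 fragments in both lists, so pileups were compared unscaled. The deposited pileup is a signal (fragment coverage). The deposited fold enrichment is a ratio of pileup plus 1 to background plus 1. The deposited −log10 p and −log10 q come from the caller. The deposited peak length is in bp. The submitters' processing notes name CASAVA 1.4 and mm9, with no aligner. Of the members' midpoints, 54.0% lay within 1 kb of a GRCm38.p6 gene end, against 17.6% and 13.5% when shifted by -10 and 10 kb, so coordinates are read as GRCm38.

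Overlaps of at least 1 bp (4785, with the same number from bedtools 2.31.1) were paired from the largest down, which left 66 unused. Pairing recovered what was planted in simulated lists. Genes came from RefSeq (47042 autosomal); its gene table has no strand, so both gene ends were used. Promoter sequences came from the RefSeq table, which gives strand. Intervals are exact binomial. Counting errors treat fragments as independent. Members and lists were chosen with earlier results of these data known. Named were the 12 members with the largest ratio, the 12 with the highest untreated pileup, the 12 and 8 so ranked at protein-coding ends, list genes, 3 pairs on each side of the threshold and the 5 longest. 1 such region is not reported here. Python 3.11.15, numpy 2.4.6, pandas 2.3.3, scipy 1.17.1 and matplotlib 3.10.9 were used.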

Additional observations from a re-analysis of the deposited data

How the results depend on the processing

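No paired analysis was possible because each group has 1 library, and for the same reason no replicate could be left out. The 630 members became 256 with an overlap of at least 50% of both peaks, 217 with a −log10 p of at least 4 in both peaks, 149 with a ratio of at least 1.1, and 1 beyond the 95% range of counting error. They became 1410 with pileup scaled to library size, which ignores the longer untreated fragments, and 2554 with each list scaled to its own median, which by construction sets the 2 median pileups equal. Their number depends on scale and margin, and with the 1410 the share at gene ends was 66.2%. The share at gene ends was 71.9% with 50% overlap of both peaks, 54.0% and 76.8% with windows of 1 and 5 kb, 58.7% with protein-coding genes only, and 54.8%, 79.3%, 77.4% and 36.4% in the pileup bands from 10, 12, 13 and 15. It was below that of the other pairs under each of the 11 alternatives with both shares that kept more than 1 member, and in each band of length or strength. Most of these alternatives count largely the same regions again, so their shared direction adds no support. In the pileup bands from 10, 12 and 13 the intervals of the 2 sets overlapped. The share inside genes was 23.0% with 50% overlap of both peaks and 33.6% at a ratio of at least 1.1. The intergenic share was 4.03% at that ratio and 13.2% with protein-coding genes only. The median untreated length was 520 bp at a ratio of at least 1.1, and the ADA-treated one 791 bp there and 765 bp with 50% overlap. Genes near members numbered 1131 with pileup scaled to library size and 106 at a ratio of at least 1.1. The share with a gene end inside both peaks was 37.1% with 50% overlap, 22.1% at a ratio of at least 1.1 and 22.1% with protein-coding genes only. The pileup bands, the counting error limit and the length-weighted pileup were added after the data were seen. The cause of these shifts was not tested, other than fewer or more pairs passing the rule.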
